A study of Mus musculus with 8 samples.

Results

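Gfap, Aqp4, Aldh1l1, Slc1a2, Slc1a3, Slc4a4, Gja1, S100b, Sox9 and Fgfr3 are 10 genes used to mark astrocytes, of 34610 protein-coding and long noncoding RNA genes in the gene table. They were taken as a list of names, and every CpG cytosine inside a gene's mm10 span or within 5 kb of it was kept where all 8 libraries had at least 10 reads. This gave 873 cytosines at 732 CpGs, of 1510385 common cytosines in the series. The assay was reduced representation bisulfite sequencing (RRBS), in which a restriction enzyme enriches CpG-dense fragments and bisulfite turns unmethylated cytosines into uracil. The 4 cocaine mice and 4 saline mice came from a self-administration experiment. All 8 were male C57 BL/6, and the DNA of each came from its own dissected dDG DGC layer of the brain, so each library is 1 mouse. The ages, the number of sessions and the time since the last session were not given in the sources used here.

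Astrocytes take up glutamate and potassium, regulate extracellular pH and water, and couple to each other through gap junctions. In mammals, CpG-dense gene starts are usually unmethylated whether or not the gene is active, while CpG-poor starts and gene bodies carry methylation that differs between cell types. In the developing mouse brain, loss of methylation at a STAT3 site upstream of Gfap accompanies the switch to astrocyte production. The dissected layer holds neurons and glia together, so a methylation level here is an average over cells, and a different share of a cell type cannot be told apart from a different level within its cells. No RNA was measured in these libraries, so the labelled cell type could not be checked by expression.

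Each library listed between 1844706 and 2236384 cytosines, with a median coverage between 34 reads (cocaine mouse 3) and 66 reads (saline mouse 3). Over all common cytosines the mean level was 37.3% ± 0.697 in cocaine mice and 38.0% ± 0.168 in saline mice (SD, n = 4 each). In saline mouse 1, 29 of the 199 astrocyte-gene cytosines of intermediate level (20 to 80% on average) were listed at exactly 0 or 100%, against 0 to 5 in each of the other 7 mice. Over all common cytosines of intermediate level the share was 11.1% in saline mouse 1 and 0.168% to 3.67% in the other 7. It was thus a trait of this library and not of the astrocyte genes alone.

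The measured gene starts were either nearly unmethylated or of intermediate level, and the pair of upstream sequences shown here gives an example of each. Both are the 250 bases before an annotated start on the plus strand, from RefSeq on GRCm38.p6, whose coordinates are those of mm10. Capitals mark the CpGs measured in all 8 libraries. Slc4a4 encodes a sodium bicarbonate cotransporter, and the sequence before its inner start lies at chr5:88887010-88887259. Aldh1l1 encodes a folate enzyme, and the sequence before its start lies at chr6:90550543-90550792.
Slc4a4 inner start: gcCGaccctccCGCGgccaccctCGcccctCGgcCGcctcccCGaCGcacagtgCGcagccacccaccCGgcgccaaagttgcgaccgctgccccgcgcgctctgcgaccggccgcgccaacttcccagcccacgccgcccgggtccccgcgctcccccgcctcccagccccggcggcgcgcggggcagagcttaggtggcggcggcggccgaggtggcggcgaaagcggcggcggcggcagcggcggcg
Aldh1l1 start: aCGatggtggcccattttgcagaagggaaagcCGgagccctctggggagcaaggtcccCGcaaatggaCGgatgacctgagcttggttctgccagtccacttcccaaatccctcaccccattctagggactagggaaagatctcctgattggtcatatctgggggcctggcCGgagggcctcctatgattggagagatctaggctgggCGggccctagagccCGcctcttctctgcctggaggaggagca
The Slc4a4 sequence holds 44 CpGs at a GC content of 82%, against a median of 6 CpGs in the 250 bases before all 32851 annotated starts. Its 10 measured cytosines averaged between 0 and 0.960% over the 8 mice. The Aldh1l1 sequence holds 7 CpGs at a GC content of 59.6%. Its 10 measured cytosines averaged between 10.7% and 47.3%, with a mean of 25.7%.

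Of the other starts with an annotated strand, Fgfr3 had 19 and 24 CpGs in the 250 bases before its 2 starts, Gja1 had 6, and Gfap, S100b and Slc1a3 had 2 each. A second inner start of Slc4a4 had 3 and the annotated start of Slc1a2 (chr2:102706438, inside the gene span) had 1. Neither of these 2 had a measured cytosine within 1 kb, nor had the start of S100b. Around the start, Slc1a3 and Gja1 were nearly unmethylated and Gfap was not. The measured CpGs of these 3 starts lay inside the genes and none in the 250 bases upstream. Upstream CpG density therefore could not be compared with these levels. Aqp4 and Sox9 were not in the promoter table, so their strand and start were not used. A search of both strands of the 10 windows found the STAT motif TTCNNNGAA in 1 of them (Slc1a3), and 7.02% of all 32851 windows hold it. Such a match describes letters in a 250-base window and was not used in any test. The search did not reach beyond these 250 bases, so it cannot tell whether a STAT site lies further upstream of Gfap.

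Of 8 genes with enough CpGs at a start or at an end of the span, 6 were almost free of methylation there in every mouse, and Gfap and Aldh1l1 were methylated at intermediate levels. Windows reach 1 kb either side. At the low-coordinate end of its span, Slc1a2 (the main glutamate transporter of the forebrain, also called GLT-1) ranged from 0.0240% to 0.400% over the 8 mice on 60 cytosines. The start of Slc1a3 (the glutamate transporter GLAST) ranged from 0.187% to 0.682% on 32 cytosines. The inner start of Slc4a4 did not exceed 0.855% in any mouse on 59 cytosines. The outer start of Fgfr3 (a fibroblast growth factor receptor) ranged from 0.0225% to 0.772% on 54 cytosines, and its second start from 0.162% to 0.965% on 90. Around the start of Gja1 (connexin 43, the main gap junction protein of astrocytes), no mouse exceeded 0.920% on 15 cytosines. In 2 cocaine and 2 saline mice this Gja1 window had no methylated read. Over the range of depths of all 8 libraries, such a count allows up to 0.208% to 0.307%. The low-coordinate end of Sox9, a transcription factor of glial specification, ranged from 0.297% to 1.22% on 68 cytosines. These windows were below the 5% needed for testing. Over the whole series 64.2% of 20899 gene ends lay below 5%, with a median of 1.40%. These count starts and far ends together where at least 5 cytosines were measured, so a level below 5% is common among measured ends.

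Gfap, the intermediate filament protein of astrocytes, had 16 CpGs in the first kilobase inside the gene (chr11:102896720-102896962, minus strand, 238 to 480 bp past the start). Their level was 49.9%, 34.5%, 38.0% and 59.1% in the cocaine mice and 47.0%, 43.7%, 51.3% and 39.8% in the saline mice. The cocaine mice lay on both sides of all 4 saline mice. The means were 45.4% ± 11.3 and 45.5% ± 4.88 (SD, n = 4 each), a difference of -0.0744 points with an adjusted p of 0.988 in the moderated quasi-binomial fit over 7336 gene ends. Single cytosines of this stretch averaged between 16.5% and 65.9% over the 8 mice, so neighbouring CpGs differed from each other far more than the groups did.

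Around the start of Aldh1l1, 35 cytosines gave 30.4%, 35.7%, 34.9% and 36.3% in the cocaine mice, against 31.7%, 38.9%, 32.7% and 35.8% in the saline mice. The groups overlapped, and the means of 34.4% ± 2.67 and 34.8% ± 3.27 differed by -0.420 points (adjusted p = 0.998). The run of 17 CpGs at -560 to -157 bp from the lower end of the span was the tightest of this gene, at 30.3% to 31.4% in the cocaine mice and 27.6% to 34.2% in the saline mice. A call on an end needed a difference of 5 points or more and an adjusted p under 0.05, and 0% of the 7336 tested ends met it. At an unadjusted p under 0.05, 0 of the 2 tested ends of these genes were lower or higher, beside 5.11% lower and 0.668% higher of all ends, and 64.2% of all tested ends had a lower mean in cocaine mice.

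**Figure D1:**
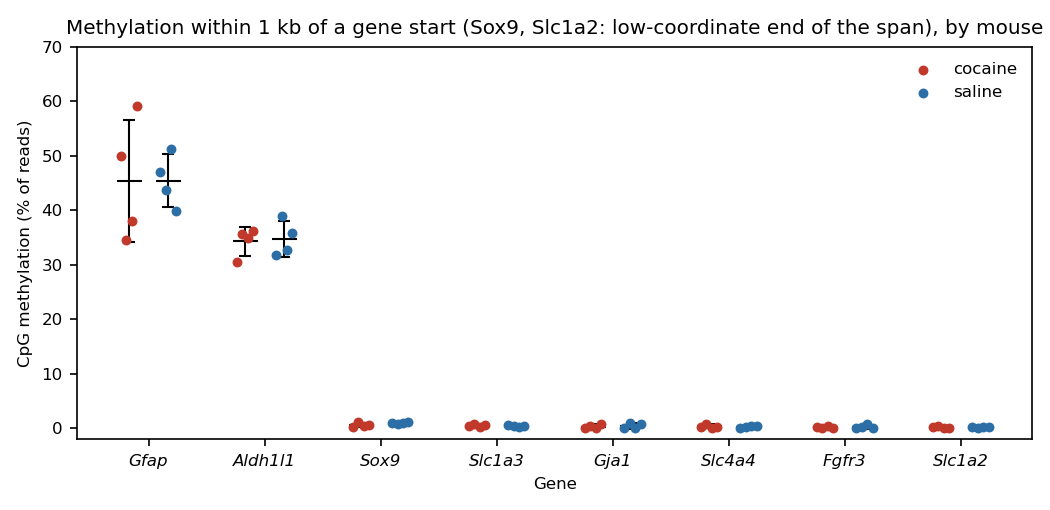
CpG methylation (percent of reads) within 1 kb of an annotated start, or, for Sox9 and Slc1a2, of the low-coordinate end of the span, with each mouse as a point, cocaine left of saline, and lines for the mean and SD of 4 mice. Gfap and Aldh1l1 lie between 30.4% and 59.1%, and the 6 other genes are at 1.22% or less in every mouse.

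Along the genes, methylation was mostly higher away from the unmethylated starts, but not everywhere. A run of 6 CpGs 47094 to 47242 bp inside Slc1a3 was at 3.95% pooled. Another of 6 CpGs, 135559 to 135770 bp past the outer end of Slc4a4, was at 9.93%. Of the 873 cytosines, 53.6% averaged below 5%, 22.8% between 20% and 80% and 15.3% above 80%. The same shares over all common cytosines were 47.1%, 17.2% and 30.0%. The cytosines formed 130 runs with gaps of at most 100 bp. Of these, 56 had fewer than 3 CpGs, 22 had a pooled level below 5%, and 52 were tested as regions. The regions were short and close together, and some overlap other annotated genes.

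**Figure D2:**
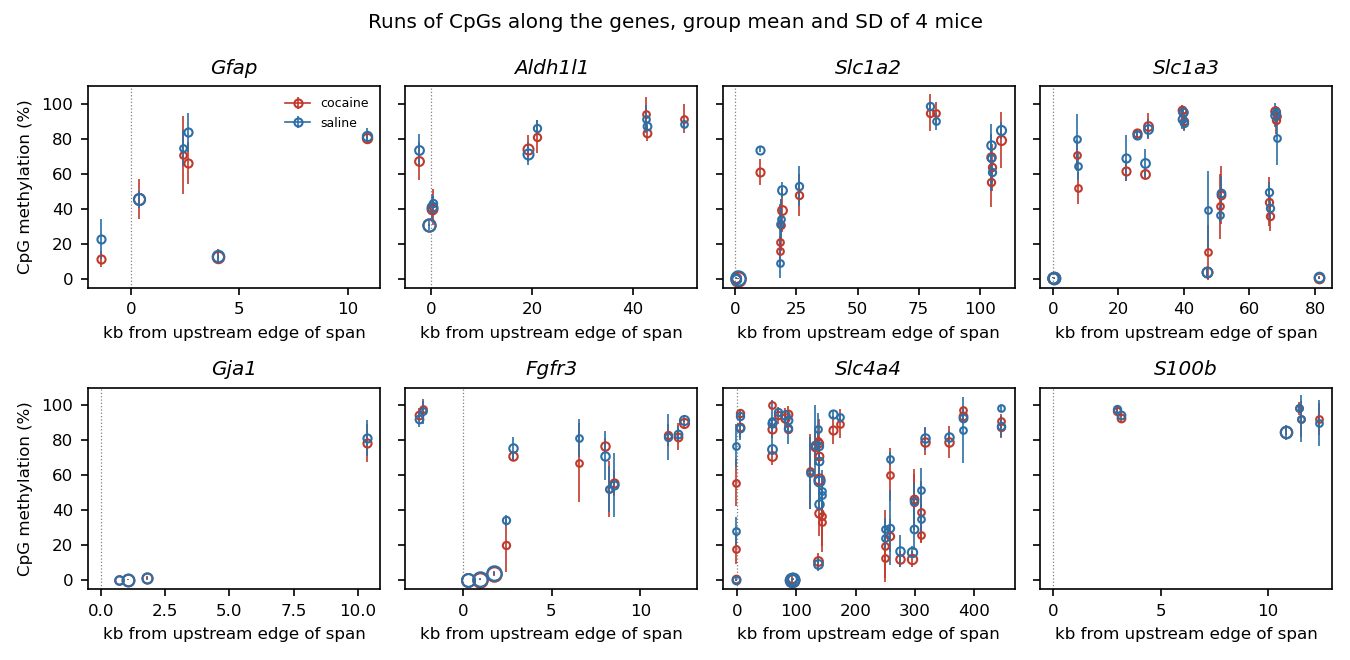
Group mean methylation (percent, with the SD of 4 mice) of each run of CpGs against its distance in kb from the upstream edge of the gene span, for the 8 genes with an annotated strand, with cocaine in red and saline in blue. Circles are larger for runs with more cytosines, up to a maximum size. Runs near that edge in Slc1a2, Slc1a3, Gja1 and Fgfr3 and near the first inner start of Slc4a4 sit at the bottom of the axis, and those of Gfap and Aldh1l1 do not.

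No region of the 10 genes passed the test between cocaine and saline mice after adjustment over all 92484 tested regions. A region call needed a difference of 10 points or more and an adjusted p under 0.05, 0% of all regions met it, and the smallest adjusted p among the 52 was 0.876. At an unadjusted p under 0.05, 4 of the 52 regions were lower in cocaine mice and 1 was higher, which is 7.69% and 1.92%. The background over all regions was 4.57% lower and 1.08% higher. The mean was lower in cocaine mice at 33 of the 52 regions, or 63.5%, beside 61.8% of all regions, and the median difference was -1.41 points beside -1.06 points. These shares lie near those of the whole series, in which cocaine libraries were lower on average at most regions. Of the 52 regions, 25 had a pooled level from 20% to 80% and a median difference of -1.91 points, beside -1.73 points for all regions at that level. Another 20 regions lay above 80%, where 10 were lower in cocaine mice, beside 60.3% of all regions above 80%.

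**Figure D3:**
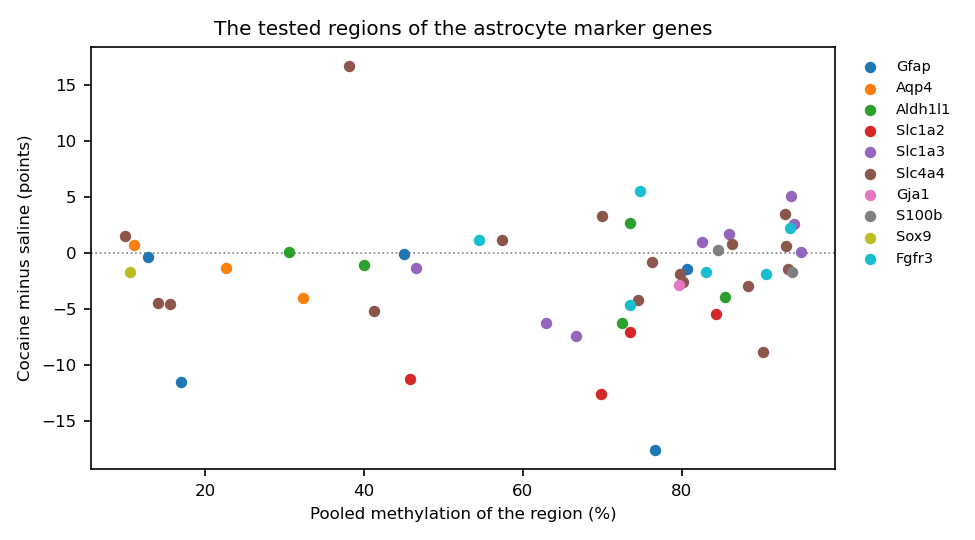
Difference in mean level, cocaine minus saline (percentage points), of the 52 tested regions against their pooled level (percent of reads), coloured by gene. The points run from -17.6 points (a Gfap region) to 16.7 points (an Slc4a4 region), and the regions of all 10 genes scatter around a median of -1.41 points.

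Slc1a2 had 4 tested regions, all inside the gene, and the mean was lower in cocaine mice at each. Distances in this gene are counted from the low-coordinate edge of its span, not from the annotated start inside it. The region 10095 to 10232 bp past that edge (chr2:102668334-102668471, 3 CpGs, also inside the long noncoding RNA LOC115489466) was at 56.2%, 66.1%, 53.5% and 68.2% in the cocaine mice, against 72.0%, 73.2%, 74.1% and 75.1% in the saline mice. Every cocaine mouse lay below every saline mouse, which was so at 1 of the 52 regions and at 2.59% of all regions. The reverse held at 0 of the 52 and at 0.701% of all regions. The means were 61.0% ± 7.23 and 73.6% ± 1.33, a difference of -12.6 points (unadjusted p = 0.0155, adjusted p = 0.876, quasi-binomial fit). All 4 cytosines of the region had a lower mean in cocaine mice, and with each mouse left out in turn the unadjusted p ran from 0.0109 to 0.0570.

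A second Slc1a2 region (chr2:102677081-102677280, 6 CpGs, 18842 to 19041 bp past the edge) was at 52.5%, 42.7%, 22.5% and 39.0% in the cocaine mice and 53.8%, 45.3%, 47.9% and 54.7% in the saline mice. Cocaine mouse 3 was far below the others, and the groups overlapped. The difference was -11.3 points (unadjusted p = 0.0323), and without cocaine mouse 3 it was -5.72 points (unadjusted p = 0.208). Further in, the region starting 104549 bp past the edge was at 69.5% ± 6.57 and 76.6% ± 6.03, and the one starting 108742 bp past it at 79.3% ± 15.8 and 84.7% ± 5.04 in cocaine and saline mice.

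Gfap had 5 tested regions, and the mean was lower in cocaine mice at all 5, with differences between -17.6 and -0.0744 points. The region with the smallest p lay 2598 to 2677 bp inside the gene (chr11:102894523-102894602, 4 CpGs). It was at 82.7%, 67.2%, 55.4% and 58.8% in the cocaine mice, against 97.8%, 70.8%, 84.4% and 81.4% in the saline mice. Cocaine mouse 1 overlapped the saline mice and the 3 others lay below them. The means of 66.0% ± 12.2 and 83.6% ± 11.1 differed by -17.6 points (unadjusted p = 0.0236, adjusted p = 0.876). Saline mouse 1 was the highest, and with each mouse left out in turn the difference ran from -23.2 to -12.9 points and the unadjusted p from 0.00637 to 0.0737. Reads over the region were few, at 80 to 231 in a library.

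Upstream of Gfap, 4 CpGs at -1407 to -1312 bp from the start (chr11:102898512-102898607, inside the long noncoding RNA Gm34560) were at 16.7%, 6.90%, 7.95% and 13.2% in the cocaine mice. In the saline mice they were at 31.9%, 12.1%, 13.97% and 32.8%. Saline mice 1 and 4 stood above the rest, and the 2 other saline mice lay within the range of the cocaine mice. The difference was -11.5 points (unadjusted p = 0.0572). By contrast, the 18 CpGs from 3913 to 4165 bp inside Gfap were low in both groups, at 6.92% to 17.2% in cocaine mice and 9.63% to 15.8% in saline mice. A run of 7 CpGs beyond the far end of Gfap, inside Fam187a, was at 80.2% ± 2.12 and 81.6% ± 4.43.

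Slc4a4 was the longest of the 10 genes, at 445799 bp, and had 17 tested regions. The mean was lower in cocaine mice at 10 and higher at 7. A region of 3 CpGs 298987 to 299035 bp past the outer end of the span (chr5:89092845-89092893) was the 1 with an unadjusted p under 0.05 and a higher mean in cocaine mice. It was at 38.5%, 58.2%, 25.0% and 62.8% in the cocaine mice and 14.4%, 30.8%, 44.2% and 28.3% in the saline mice. Cocaine mice 2 and 4 were above all saline mice, and the 2 others lay among them. The difference was 16.7 points (unadjusted p = 0.0139, adjusted p = 0.876), and without cocaine mouse 2 it was 12.7 points (unadjusted p = 0.157). A region of 4 CpGs at chr5:88955678-88955739 was at 86.0%, 97.3%, 80% and 80% in the cocaine mice, against 96.6%, 92.2%, 96.8% and 93.2% in the saline mice. Cocaine mouse 2 was the highest of all 8 and the 3 others were the lowest. The difference was -8.87 points (unadjusted p = 0.0239), under the 10 points required of a called region.

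**Figure D4:**
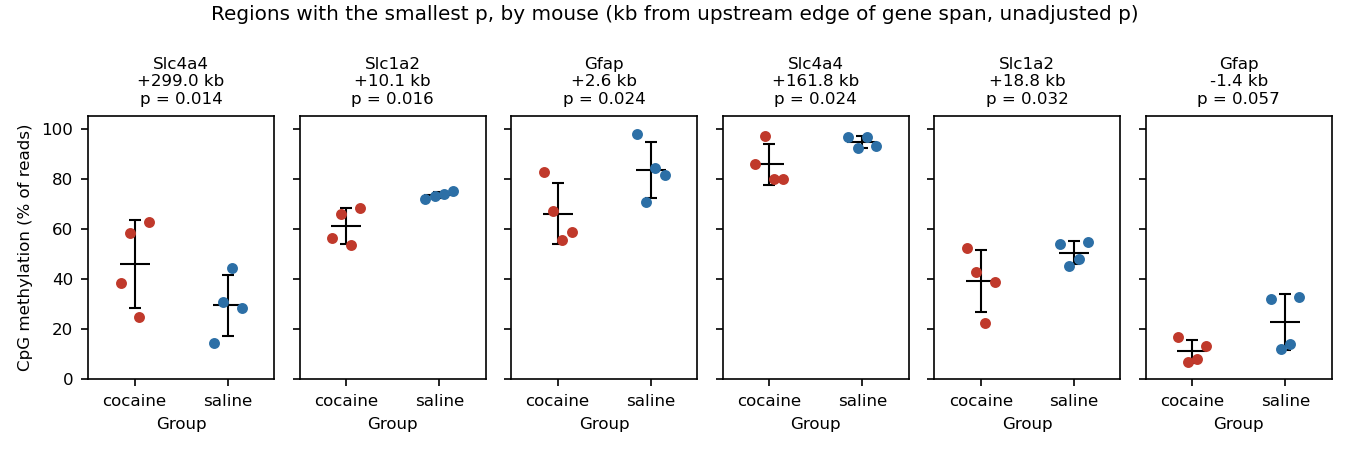
CpG methylation (percent of reads) of the 5 regions with an unadjusted p under 0.05 and the upstream Gfap run, each point a mouse, cocaine left of saline, with the mean and SD of 4 mice and, above each panel, the distance from the upstream edge of the gene span and the unadjusted p. In the first Slc1a2 panel the 4 cocaine mice (53.5% to 68.2%) all lie below the 4 saline mice (72.0% to 75.1%), and in the other 5 panels the groups overlap.

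Slc1a3, the other glutamate transporter, had 8 tested regions, of which 5 had a higher mean in cocaine mice. The smallest p belonged to 3 CpGs at chr15:8671221-8671262, which were at 92.3%, 98.0%, 98.8% and 96.2% in the cocaine mice and 89.3%, 86.5%, 89.1% and 100% in the saline mice. Saline mouse 4 was the highest and the 3 other saline mice the lowest. The means of 96.3% ± 2.89 and 91.2% ± 5.99 differed by 5.09 points (unadjusted p = 0.0512). Without saline mouse 4 the difference was 8.02 points (unadjusted p = 0.0183), and with gaps of up to 200 bp it was 1.78 points (unadjusted p = 0.290). The remaining regions ran from 46.6% to 94.98% pooled, and a run of 6 CpGs within the 5 kb beyond the far end was nearly unmethylated, at 0.745% pooled.

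Aldh1l1 was mostly methylated past its start. Its tested region with the smallest p was the flanking run at -2553 to -2442 bp from the edge of the span (chr6:90548215-90548326), at 64.2%, 78.6%, 72.8% and 53.8% in the cocaine mice and 74.4%, 79.9%, 79.7% and 60.2% in the saline mice. The lowest mouse was cocaine mouse 4 and the next lowest saline mouse 4, and the difference was -6.24 points (unadjusted p = 0.313), or -1.72 points without cocaine mouse 4. The 2 tested regions beyond its first kilobase averaged 74.1% and 83.0% in cocaine mice and 71.4% and 87.0% in saline mice.

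Aqp4, the water channel of astrocyte endfeet, had 17 common cytosines, none of them within 1 kb of either end. Its region with the smallest p (6 CpGs, chr18:15403477-15403670) was at 31.1%, 31.6%, 24.1% and 32.7% in the cocaine mice and 27.7%, 38.7%, 33.8% and 35.2% in the saline mice. Cocaine mouse 3 was the lowest, and the groups overlapped, with a difference of -3.99 points (unadjusted p = 0.248). Of its 3 regions, 2 share their bases with the annotated gene A830021F12Rik.

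Gja1 had 1 tested region, 10306 to 10403 bp past the start, because its other 3 runs of at least 3 CpGs were below 5%. The region was at 76.5%, 64.5%, 89.2% and 83.1% in the cocaine mice and 76.1%, 87.7%, 91.5% and 69.3% in the saline mice. The spread within each group (SD 10.6 and 10.3) exceeded the difference of -2.82 points (unadjusted p = 0.358).

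S100b, a calcium-binding protein of astrocytes, was methylated wherever it was measured. Inside the gene, 3 CpGs at chr10:76256969-76257032 were at 89.8%, 96.9%, 92.6% and 92.0% in the cocaine mice and 92.7%, 96.3%, 94.7% and 94.4% in the saline mice. The difference was -1.71 points (unadjusted p = 0.765). A run of 16 CpGs beyond its far end, inside Dip2a, was at 84.9% ± 1.84 and 84.6% ± 4.28. At the limit of 5 kb, a cytosine 4874 bp out was at 92.5% pooled and the next ones, 5028 bp out and not counted, at 92.8%.

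Most measured cytosines of the regulators Sox9 and Fgfr3 were unmethylated. Of 108 Sox9 cytosines, 102 averaged below 5%. Its single tested region (3 CpGs, chr11:112785432-112785464) was at 10.2%, 9.40%, 8.43% and 11.6% in the cocaine mice and 4.35%, 6.35%, 17.1% and 18.6% in the saline mice. The saline mice lay on both sides of all 4 cocaine mice (difference -1.70 points, unadjusted p = 0.842). Of 191 Fgfr3 cytosines, 137 averaged below 5%. Its region with the smallest p, 2775 to 2929 bp past the outer start, was at 73.3%, 70.1%, 68.8% and 70.6% in the cocaine mice and 83.2%, 72.5%, 77.7% and 67.9% in the saline mice. Saline mouse 4 was the lowest of all 8 and saline mouse 1 the highest, and the difference was -4.61 points (unadjusted p = 0.240).

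Summed over each gene's interior, more than 1 kb from both ends, 8 of the 10 genes could be tested and 7 had a lower mean in cocaine mice, beside 71.2% of 14638 tested interiors. The median difference of the 8 was -2.53 points beside -1.29 points. None was called, at a background of 0%. At an unadjusted p under 0.05, Slc1a2 and Gfap were lower in cocaine mice, beside 6.15% of all interiors, and 0 of the 8 were higher, beside 0.649%. The interior of Slc1a2 begins at chr2:102659240, inside a nearly unmethylated run near the low-coordinate edge (chr2:102658914-102659639, 0.214% pooled). Of its 49 cytosines, 16 had a pooled level below 20%, so it is not a measure of the gene body alone. This interior was at 23.5%, 34.9%, 24.8% and 29.0% in the cocaine mice and 34.5%, 37.3%, 39.5% and 39.1% in the saline mice. Cocaine mouse 2 lay just above saline mouse 1 and the 3 others lay below all saline mice. The means of 28.1% ± 5.13 and 37.6% ± 2.29 differed by -9.55 points (unadjusted p = 0.00204, adjusted p = 0.639).

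The interior of Gfap (23 cytosines) was at 24.8%, 18.4%, 21.7% and 20.1% in the cocaine mice and 28.2%, 25.7%, 26.1% and 34.6% in the saline mice. All 4 cocaine mice lay below all 4 saline mice, as at 3.93% of all interiors. The means of 21.2% ± 2.71 and 28.6% ± 4.10 differed by -7.41 points (unadjusted p = 0.0111, adjusted p = 0.704). The 23 cytosines are those of the run of 18 CpGs, the region of 4 CpGs described above and a single cytosine at chr11:102894797. Their differences were -0.392, -17.6 and -3.97 points, and the groups overlapped in each. The interior is therefore not a result separate from that region.

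These interior levels count reads, so a library with more reads on unmethylated cytosines has a lower level. The Slc4a4 interior spans the nearly unmethylated inner start, and 77 of its 165 cytosines had a pooled level below 20%. In the Gja1 interior 21 of 25 cytosines did. Reads on cytosines with a pooled level below 20% made up 53.9% ± 5.32 of the Slc1a2 interior in cocaine mice and 45.0% ± 3.63 in saline mice. For Gfap they made up 65.8% ± 2.32 and 61.4% ± 3.46. With each cytosine weighted equally, Slc1a2 was at 43.2% ± 3.83 in cocaine mice and 47.2% ± 1.75 in saline mice, a difference of -4.08 points (limma, unadjusted p = 0.0689). Gfap was then at 24.7% ± 4.17 and 27.3% ± 2.93, a difference of -2.59 points (unadjusted p = 0.274), so neither interior stayed below an unadjusted p of 0.05. Slc4a4 gave -3.51 points by reads and -1.05 points by cytosines, and Gja1 -2.35 and -0.356 points. Aqp4 gave -2.71 points by reads and -3.69 points by cytosines. Among the regions, the first Slc1a2 region was at -11.7 points with equal weights (unadjusted p = 0.0348), the second at -11.3 points (unadjusted p = 0.210), the Gfap region at -17.6 points (unadjusted p = 0.0245) and the Slc4a4 regions at 17.3 points (unadjusted p = 0.0671) and -8.77 points (unadjusted p = 0.0336).

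**Figure D5:**
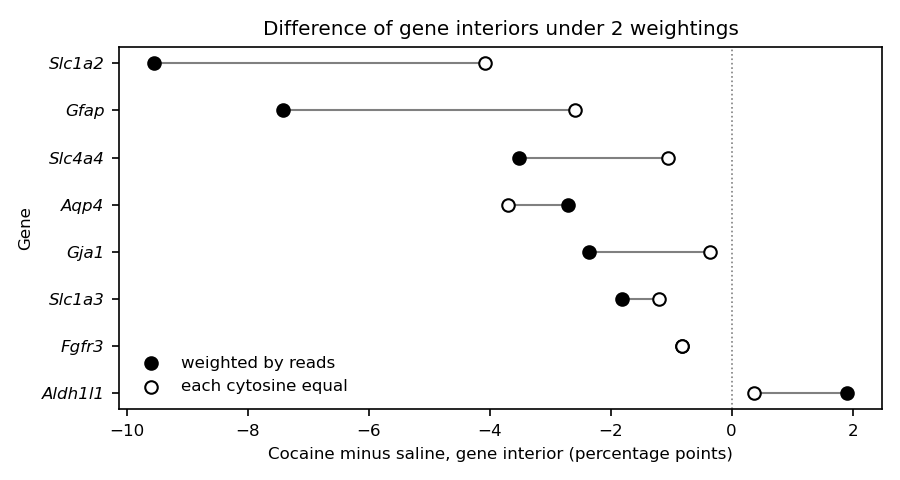
Difference in mean level of gene interiors, cocaine minus saline (percentage points), for the 8 tested genes, with filled circles for levels summed over reads and open circles for levels with each cytosine weighted equally. Slc1a2 goes from -9.55 to -4.08 points and Gfap from -7.41 to -2.59 points, while Fgfr3 stays at -0.816 and -0.821 points.

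A wider list of 40 astrocyte genes had 158 tested regions in 36 genes. At an unadjusted p under 0.05, 12 regions (7.59%) were lower and 2 (1.27%) were higher in cocaine mice, beside the 4.57% and 1.08% of all regions, and none was called. Its median difference was -1.78 points. Among the 6 genes with the smallest region p were Htra1 (a secreted protease), Nfib (a glial transcription factor), Gli3 and Hes5 (nuclear effectors of Hedgehog and Notch signalling) and Mfge8 (a secreted bridging protein). Their differences were -14.4 points for Htra1, -9.33 for Nfib, -13.8 for Gli3, -12.9 for Hes5 and -11.4 for Mfge8, each with an adjusted p of 0.876. Mfge8 was the 1 region of these 5 in which the groups did not overlap. Its cocaine mice were at 76.6% to 90.4% and its saline mice at 92.0% to 100%, and its difference changed sign with a 200 bp gap. The groups did not overlap at 5 lower and 2 higher regions of the 158, beside 2.59% and 0.701% of all regions.

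Markers of other cells that the layer can hold also had more regions with a lower than with a higher mean in cocaine mice at that p, as did the whole series. The neuronal list held granule neuron genes such as Prox1 and C1ql2, and general neuronal genes such as Rbfox3, Syt1 and Snap25. At an unadjusted p under 0.05, 13 of 125 regions of this neuronal list (10.4%), 3 of 46 oligodendrocyte regions (6.52%), 3 of 24 microglial regions (12.5%) and 4 of 45 endothelial and mural regions (8.89%) were lower in cocaine mice. The same counts for higher regions were 0, 0, 0 and 1. Of all regions, 4.57% were lower and 1.08% higher at that p. The median differences were -2.24, -1.62, -0.406 and -3.62 points in the order of those lists, beside -1.06 points over all regions, and none was called. Whether these lists differ from the astrocyte markers was not tested.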

How the data were processed

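RRBS libraries of 4 cocaine and 4 saline mice were grouped by their titles. Per the submitters' processing notes, bcl2fastq and Bismark 22.1 were used with mm10. The sources used here do not give trimming or duplicate removal. The header calls the authors' level a percent, but its values are a fraction between 0 and 1. Coverage, as deposited, counts reads, with at least 10 per cytosine. Level times coverage was whole at 100% of cytosines, within 5e-07 of a read per read of coverage, so methylated and unmethylated reads were recovered. PCR copies cannot be told apart, so limits from counts of 0 (3 reads of the total) cover counting error only.

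Cytosines with at least 10 reads in all 8 libraries were kept, strands apart. Regions joined neighbours no more than 100 bp apart and needed at least 3 CpGs. Gene ends (1 kb either side) and interiors needed at least 5 cytosines. A pooled level from 5% to 95% was required for testing. Levels are methylated reads over all reads of a feature. All features of a kind (92484 regions, 7336 ends, 14638 interiors) were fitted by quasi-binomial regression on group. Pearson dispersions were moderated by the squeezeVar function of limma 3.58.1 in R 4.3.3, using log coverage as trend and no value under 1. F tests were adjusted by Benjamini-Hochberg. Python 3.11.15 with pandas 2.3.3 was used for counting. The fit was tested on simulated data.

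Gene spans came from a RefSeq table of GRCm38.p6. It gives no exons, so exon, intron and UTR were not placed. Starts and strands came from the RefSeq promoter table, which held 8 of the 10 genes. Of each gene, the tested region with the smallest unadjusted p was given in full, with all regions under 0.05 and the 6 leading genes of the wider list, of which 1 is not reported here. The upstream Gfap run was named as the flank of that gene. The genes and lists were chosen with earlier results of these data known. The lowest chi-square per region over the 28 pairs of libraries was 4.84, so no library repeated another. Alternatives were a coverage minimum of 20, no level filter, limma on logit values, merged strands, a 200 bp gap, 2 kb ends, a replicate block, each library left out, and equal weights per cytosine.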

Additional observations from a re-analysis of the deposited data

Results flagged for a closer look

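Of 56 groups of 4 mice examined at the named regions, ends and interiors, 2 held a mouse far from the other 3 by Dixon's criterion, and chance gives about 1 in 20 groups. In the Htra1 region (chr7:130969944-130970019), saline mouse 4 was at 91.7%, against 78.2% to 80.1% in the other 3 saline mice. In the Mfge8 region (chr7:79133929-79133998), saline mouse 1 was at 100%, against 92.0% to 92.6% in the other 3 saline mice.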

How the results depend on the processing

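Under every alternative run, no region, end or interior of the 10 genes was called. Of 413 comparisons of 28 named features with an alternative, 400 kept their direction and 13 reversed, none of them past an unadjusted p of 0.05. Regions of the 10 genes at an unadjusted p under 0.05 numbered 4 lower and 1 higher in cocaine mice. The lower count was 2 with limma on logit values, and 0 to 6 when each mouse was left out (0 without cocaine mouse 3, 2 without cocaine mouse 4). The higher count was 2 without the level filter, 0 with a coverage minimum of 20, with limma on logit values and with equal weights, and 0 to 2 when each mouse was left out (0 without cocaine mouse 2, and 2 without cocaine mouse 1 or saline mouse 4). With a coverage minimum of 20 the higher Slc4a4 region was not tested, as a cytosine of it had as few as 19 reads. The lower Slc4a4 region was not tested there either. Interiors of the 10 genes lower at that p numbered 2, against 1 with a coverage minimum of 20, 0 with equal weights, and 2 to 3 when each mouse was left out. Equal weighting was chosen after seeing the data. Over all genes, 424 ends passed that p, against 1293 without the level filter and 748 with 2 kb ends, and 995 interiors passed it, against 664 to 1829 when each mouse was left out (1829 without cocaine mouse 4).

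The 13 reversals were small. The Gja1 region was at 1.79 points without cocaine mouse 2 and 0.623 without saline mouse 3, in a range from -6.78 to 1.79 with each mouse left out. The Sox9 region was at 0.125 without saline mouse 3 and 0.636 without saline mouse 4, in a range from -4.12. The Mfge8 region was at 1.61 with a 200 bp gap, which adds cytosines to it. The Aldh1l1 start was at 0.0177 with a coverage minimum of 20, 0.888 without cocaine mouse 1 and 0.968 without saline mouse 2, in a range from -1.44. The Gfap start was at 0.368 with equal weights, and at 3.56, 2.39, 0.438 and 1.88 without cocaine mouse 2, cocaine mouse 3, saline mouse 1 and saline mouse 3, in a range from -4.65. Causes were not tested. Other values that moved by over 1.5 times, none past an adjusted p of 0.05, include the Slc4a4 interior (-1.35 without cocaine mouse 3, -5.54 without cocaine mouse 4), the Fgfr3 interior (-3.84 with 2 kb ends) and the regions of Aldh1l1 (-0.754 with a coverage minimum of 20), Aqp4 (-2.06 without cocaine mouse 3) and Fgfr3 (-1.99 without saline mouse 1).

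With the replicate number as a block, 1 region of the series was called, against 0 without it, and no call among the 10 genes changed. Cocaine and saline mice of the same number correlated at -0.0169, -0.0105, 0.00667 and 0.0772 in their deviations from the group means, so the numbers were not taken to pair the mice. Depth limits the regions with few reads. In the library with the fewest reads, the 4 CpGs in Gfap had 80 reads. The higher and lower Slc4a4 regions had 60 and 65, and the Slc1a3 region had 39. With a coverage minimum of 20 several named regions had no value.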
